A study of Mus musculus with 36 samples.

Results

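The comparison described here sets the kidneys of newborn digenic mice, labelled Digenic and combining the Pkhd1-/- and the Pkd1-RC/RC genotype by the series' title, against those of wild-type mice, all at postnatal day 0 (P0). It was chosen by genotype and age from the labels and holds 6 of the 36 libraries of the series, 3 digenic and 3 wild type, matched to the columns of the deposited table by the animal number in each label. All mice are labelled C57BL/6, and the RNA came from whole kidney. Newborn mice with 1 of the genotypes, Pkd1-RC/RC and Pkhd1-/-, with 3 libraries each, were used to share the estimate of spread and for side-by-side values, and digenic and wild-type kidneys of days 3 and 12 (P3, P12), with 3 libraries per group, for the later ages. Each library carries its own animal number, so p-values measure the spread between mice.

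Pkd1 encodes polycystin-1, a large membrane protein of the primary cilium and cell junctions, and mutations in it underlie most dominant polycystic kidney disease. The RC allele is a missense change that leaves polycystin-1 partly active. Fibrocystin, the product of Pkhd1, is a membrane protein of the same cilium, and its loss causes the recessive form of the disease. In the newborn mouse kidney nephrons are still being formed, and the proximal tubule is only beginning to express its full set of transporters and metabolic enzymes.

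Total counts ran from 51411240 to 76481287 in the wild-type libraries and from 59992925 to 74249842 in the digenic ones. Levels are given as CPM, read counts scaled to a common library size with edgeR's TMM factors. Column headers give the sexes as female, male, female for wild type and male, female, male for digenic, and the counts of Xist and Y-linked genes fit them. In Pkhd1-/- replicate 1 they do not, and that library held 382 CPM of the adrenal transcripts described next. It entered the estimate of spread, the test against Pkhd1-/- and the fit over all ages, and each is also given without it. Among the later ages, the column of digenic P12 replicate 1 is headed P3 and that of Pkd1-RC/RC P12 replicate 2 is headed Pkhd1, against the labels, which were followed here through the animal number. At P12 the library labelled Pkd1-RC/RC replicate 2 held 229.7 CPM of Pkhd1, beside 214 and 224 CPM in the others of its label and 18.9 to 20.1 CPM in Pkhd1-/-. The age of digenic P12 replicate 1 was not tested, and the P12 results are given with and without it. Adrenal transcripts, 9 measured, summed to 57.5 CPM in wild-type replicate 1 and to at most 6.52 CPM in the other 5 wild-type and digenic libraries. Albumin mRNA (Alb) stood at 108.8 and 30.5 CPM in wild-type replicates 2 and 3, and at 0.224 to 0.884 CPM in the other 4. Over genes at or above 0 in mean log2 CPM, the correlation of log2 CPM with log2 gene length was 0.269 to 0.295 in the digenic libraries and 0.242 to 0.256 in wild type, without overlap. These genes are not independent replicates. Genes of 39 to 2520 bases had a median log2 fold change of -0.08 and held 26 of the 37 falls and 27 of the 84 rises described next, and genes of 4715 to 84395 bases had a median of 0.10 and held 4 falls and 28 rises. With the length trend removed, 28 of the 37 falls and 69 of the 84 rises were called again. The part of adrenal and liver transcripts in the results was not tested beyond leaving out each library. Markers of the kidney's own cells were present in the 6 wild-type and digenic libraries, with 27 proximal tubule genes summing to at least 4937 CPM and 12 podocyte genes to at least 1785 CPM.

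As a check of the labels, the targeted genes were read in every library. Pkhd1 (ENSMUSG00000043760, chromosome 1: 20057779 to 20618064, mm10) stood at 9.29, 9.23 and 10.7 CPM in the digenic libraries and 76.4, 74.0 and 62.5 CPM in wild type. The digenic libraries lay far below every wild-type library, at a log2 fold change of -2.86 ± 0.229 (SE), adjusted p = 0.000213 by edgeR. In Pkhd1-/- libraries it stood at 5.68, 9.76 and 6.38 CPM, with a digenic minus Pkhd1-/- difference of 0.42 ± 0.218 (SE) on the log2 scale that did not pass (adjusted p = 0.378). The antisense transcript 4930486I03Rik, which lies within Pkhd1, had 1, 0 and 0 counts in digenic against 94, 108 and 79 in wild type, 88, 88 and 141 in Pkd1-RC/RC and 0, 4 and 0 in Pkhd1-/-. The sources used here give no strand setting, so reads of the antisense gene and of Pkhd1 cannot be told apart. Pkd1 carries a point allele, which its level does not check: it stood at 61.6, 75.9 and 62.8 CPM in the digenic libraries and 45.7, 60.5 and 54.0 CPM in wild type, with log2 fold change 0.32 ± 0.185 (SE), adjusted p = 0.407, and the groups did not overlap. Pkd2, the channel partner of polycystin-1, stood at 114, 129.8 and 108 CPM in the digenic libraries and 42.9, 88.3 and 63.4 CPM in wild type, a difference that did not pass (log2 fold change 0.85 ± 0.259 (SE), adjusted p = 0.152).

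Digenic kidneys at birth differed from wild type at 121 of 18035 genes, with 84 higher (0.466% of genes tested) and 37 lower (0.205%). The falls included Haao, Miox, Kap and Prodh2, genes of metabolism or of the proximal tubule, at 6.39-fold to 23.1-fold lower levels. The rises included Havcr1, Folh1, Gdf15, Ankrd1 and Bst1, at 4.87-fold to 13.7-fold higher levels. Of the 121 genes, 83 differed by at least 2-fold, 55 of them higher and 28 lower. All 121 were called with edgeR's quasi-likelihood test at an adjusted p under 0.05 in a fit of the 12 P0 libraries, and in all of them the 3 digenic libraries lay outside the range of wild type. Over all genes tested, 11.4% lay wholly higher and 11.2% wholly lower, so absence of overlap alone is common here. An unadjusted p under 0.05 was reached by 1615 higher and 1335 lower genes.

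**Figure D1:**
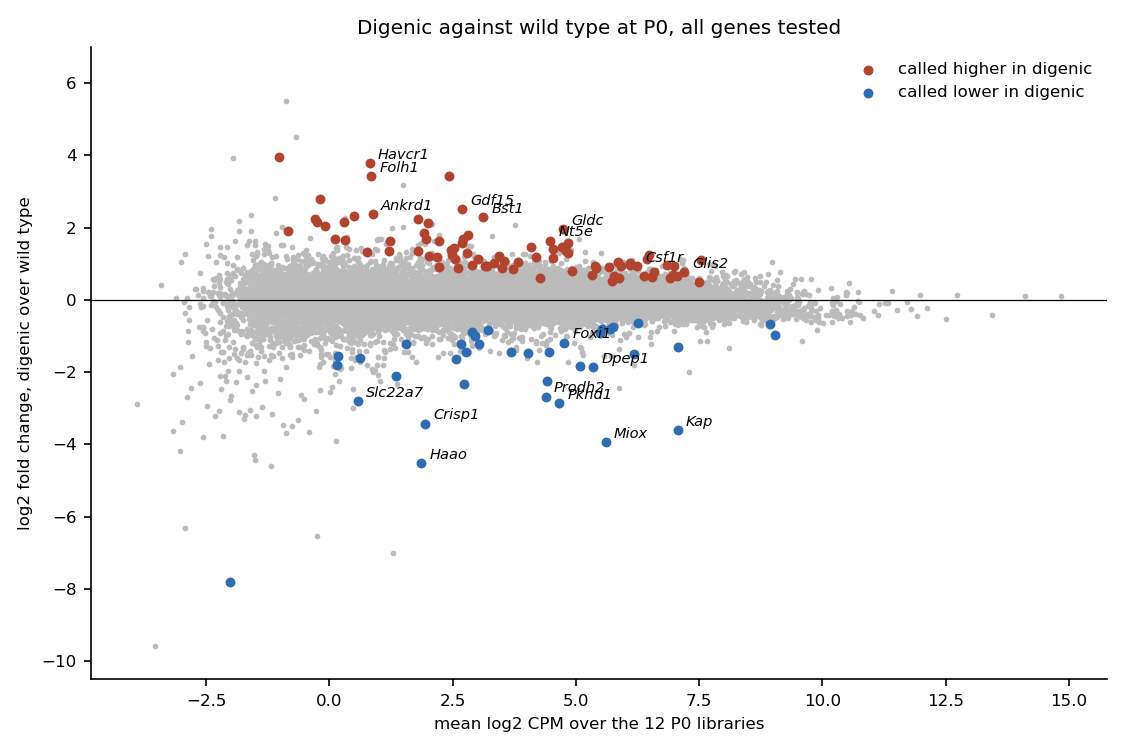
Log2 fold change of digenic over wild type (vertical axis) against mean log2 CPM over the 12 P0 libraries (horizontal axis), 1 point per gene tested, with the 84 called rises in red and the 37 called falls in blue. Among the genes named in the plot Haao lies lowest, at -4.53, and Havcr1 highest, at 3.78.

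The call of a gene depended on single libraries. Without wild-type replicates 1, 2 or 3, 18, 132 and 11 genes were called higher and 8, 38 and 10 lower. Without digenic replicates 1, 2 or 3, 30, 23 and 40 were called higher and 7, 8 and 16 lower. In every one of these 6 fits 16 of the 121 genes kept their call: Ankrd1, Gdf15, Bst1, Masp1, Lect1, Tinagl1, Gramd1b, AU015836, Gm14292 and Gm9825 among the rises, and Haao, Miox, Prodh2, Pkhd1, Nsg2 and 4930486I03Rik among the falls. These same 16 were called under all 15 alternatives tried, DESeq2 included, and 24 genes lost their call in each of the 6. Of the 16, Gm14292 and Gm9825 were as high in Pkd1-RC/RC, at means of 4.45 and 29.96 CPM beside 4.34 and 29.7 CPM in digenic. Both were also called higher in Pkd1-RC/RC than in wild type by edgeR (adjusted p = 0.0256 and 0.0133).

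**Figure D2:**
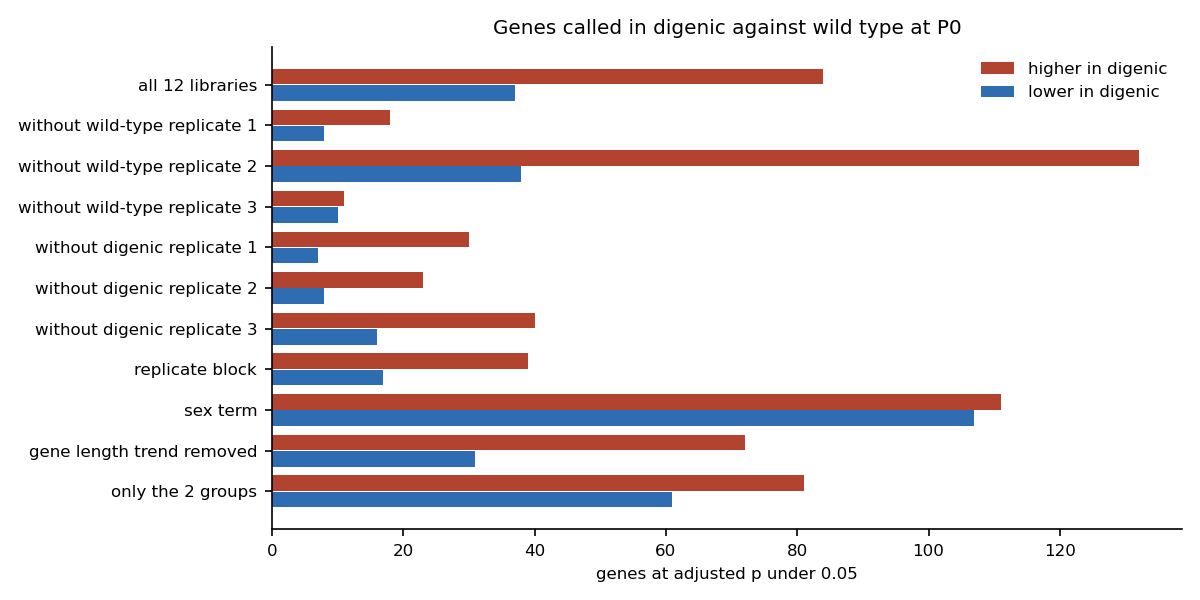
Number of genes at an adjusted p under 0.05 in digenic against wild type at P0 (horizontal axis) for each fit (vertical axis), with rises in red and falls in blue. All 12 libraries gave 84 rises and 37 falls, and leaving out wild-type replicate 3 gave 11 and 10.

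Haao (ENSMUSG00000000673, chromosome 17: 83831356 to 83846790), the dioxygenase that opens the ring of 3-hydroxyanthranilate on the kynurenine route to NAD, stood at 0.655, 0.462 and 0.652 CPM in the digenic libraries and 13.9, 17.4 and 9.46 CPM in wild type. Its log2 fold change was -4.53 ± 0.494 (SE), adjusted p = 0.00197, the largest fall with an official symbol and a mean of at least 1 CPM. Pkd1-RC/RC libraries held 3.95, 1.35 and 5.07 CPM and Pkhd1-/- libraries 6.75, 11.4 and 4.81 CPM. Every single-mutant library therefore lay above every digenic one, and the Pkd1-RC/RC libraries lay below every wild-type one. By edgeR Haao was called lower in digenic than in Pkhd1-/-, but the difference from Pkd1-RC/RC did not pass.

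Miox (ENSMUSG00000022613, chromosome 15: 89334398 to 89337015), the oxygenase that begins myo-inositol breakdown in the proximal tubule, stood at 10.4, 9.59 and 9.72 CPM in the digenic libraries and 179, 183 and 96.2 CPM in wild type. The log2 fold change was -3.95 ± 0.432 (SE), adjusted p = 0.00197, and the 3 digenic values lay within 1 CPM of each other. Prodh2 (ENSMUSG00000036892, chromosome 7: 30493622 to 30513402), a hydroxyproline dehydrogenase of the liver and kidney, stood at 5.53, 9.85 and 4.83 CPM in the digenic libraries and 47.6, 52.8 and 29.0 CPM in wild type, a log2 fold change of -2.68 ± 0.374 (SE), adjusted p = 0.00761. Wild-type replicate 3 was the lowest of its group for all 3 of these genes, and still above every digenic library. In Pkd1-RC/RC libraries Miox stood at 83.4, 22.4 and 44.8 CPM and Prodh2 at 35.5, 13.8 and 15.7 CPM. Replicate 2 of that genotype, with the lowest value for all 3 genes, also held 488 CPM of adrenal transcripts. Pkhd1-/- libraries held 96.0, 109 and 64.8 CPM of Miox and 36.8, 38.8 and 32.9 CPM of Prodh2, also above every digenic library. By edgeR both genes were called lower in digenic than in Pkhd1-/-, but neither passed against Pkd1-RC/RC. Kap, a protein of the proximal tubule that androgens raise, stood at 41.4, 31.6 and 29.2 CPM in the digenic libraries and 315, 774 and 146 CPM in wild type. Its wild-type values were widely spread, with the male library the highest. The log2 fold change was -3.60 ± 0.542 (SE), adjusted p = 0.017, with an adjusted p of 0.0102 with a sex term, and the call was lost without wild-type replicate 1 or any 1 digenic library.

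The 10 further falls named by rank ran from a log2 fold change of -3.42 to -1.64. They were Crisp1 (a secreted cysteine-rich protein), Pkhd1 itself, Slc22a7 (an organic anion transporter), Crabp1 (a retinoic acid binding protein), Mogat2 (a monoacylglycerol acyltransferase), Ces1e (a carboxylesterase), Dpep1 (a dipeptidase of the brush border), Slc16a4 (of the monocarboxylate transporter family), Ndp (norrin, a ligand of a Wnt receptor) and Fitm1 (a protein of lipid droplets). Dpep1 stood at 15.9, 23.5 and 17.4 CPM in the digenic libraries and 80.1, 81.9 and 45.6 CPM in wild type, a log2 fold change of -1.87 ± 0.289 (SE), adjusted p = 0.0121. Mogat2 stood at 9.39, 7.85 and 8.19 CPM in the digenic libraries and 42.4, 49.6 and 27.5 CPM in wild type, a log2 fold change of -2.23 ± 0.365 (SE), adjusted p = 0.017. In both genes wild-type replicate 3 was nearest to the digenic libraries. Slc22a7 stood at 0.379, 0.757 and 0.160 CPM in the digenic libraries and 3.82, 2.94 and 2.43 CPM in wild type (log2 fold change -2.81 ± 0.513 (SE), adjusted p = 0.0304), and Crisp1 at 0.827, 1.26 and 1.92 CPM in the digenic libraries and 5.001, 13.4 and 24.8 CPM in wild type (log2 fold change -3.42 ± 0.639 (SE), adjusted p = 0.0336). Ces1e and Crisp1 belong to families of close paralogs, between which reads can be split. Nsg2, outside the ranks but kept in every fit, stood at 4.999, 7.52 and 6.71 CPM in the digenic libraries and 17.7, 17.3 and 17.9 CPM in wild type (log2 fold change -1.46 ± 0.205 (SE), adjusted p = 0.00782).

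The largest rise by rank was Havcr1, kidney injury molecule 1, which injured proximal tubule cells put on their surface. It stood at 4.81, 14.4 and 6.06 CPM in the digenic libraries and 0.402, 1.01 and 0.400 CPM in wild type. Digenic replicate 2 was the highest, and all 3 digenic libraries lay above wild type (log2 fold change 3.78 ± 0.547 (SE), adjusted p = 0.00896), with the call lost without wild-type replicate 1 or 3. Folh1, a glutamate carboxypeptidase that also trims folate chains, stood at 4.74, 10.3 and 6.19 CPM in the digenic libraries and 0.944, 0.644 and 0.400 CPM in wild type, a log2 fold change of 3.43 ± 0.489 (SE), adjusted p = 0.0083, with the call lost without wild-type replicate 3.

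Ankrd1 (ENSMUSG00000024803, chromosome 19: 36111965 to 36119844), an ankyrin repeat protein and much used target of the YAP and TEAD factors, stood at 6.86, 6.89 and 8.31 CPM in the digenic libraries and 1.21, 1.52 and 1.51 CPM in wild type. It rose by a log2 fold change of 2.37 ± 0.225 (SE), adjusted p = 0.000823, with the smallest adjusted p among the rises. Pkd1-RC/RC libraries held 1.25, 1.06 and 1.61 CPM and Pkhd1-/- libraries 0.839, 0.803 and 0.757 CPM, so that neither single mutant overlapped with digenic. Gdf15 (ENSMUSG00000038508, chromosome 8: 70629393 to 70632456), a cytokine of the TGF-beta family that stressed cells release, stood at 24.0, 25.6 and 30.3 CPM in the digenic libraries and 4.30, 4.56 and 5.02 CPM in wild type (log2 fold change 2.52 ± 0.326 (SE), adjusted p = 0.00417). The 3 digenic values lay closer to each other than to any wild-type library. Bst1 (ENSMUSG00000029082, chromosome 5: 43818886 to 43843247), a surface enzyme that uses NAD, stood at 18.2, 36.5 and 29.0 CPM in the digenic libraries and 4.32, 6.37 and 6.46 CPM in wild type (log2 fold change 2.28 ± 0.291 (SE), adjusted p = 0.004). Pkd1-RC/RC libraries held 3.29, 3.66 and 8.81 CPM of Gdf15 and 7.41, 4.95 and 6.84 CPM of Bst1, all below digenic. Masp1, a protease of the lectin pathway of complement, stood at 6.41, 7.67 and 8.48 CPM in the digenic libraries and 2.63, 2.46 and 1.99 CPM in wild type (log2 fold change 1.67 ± 0.203 (SE), adjusted p = 0.00277). Lect1, the cartilage protein chondromodulin, stood at 2.90, 3.31 and 2.05 CPM in the digenic libraries and 0.643, 0.657 and 0.548 CPM in wild type (log2 fold change 2.16 ± 0.261 (SE), adjusted p = 0.00277).

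**Figure D3:**
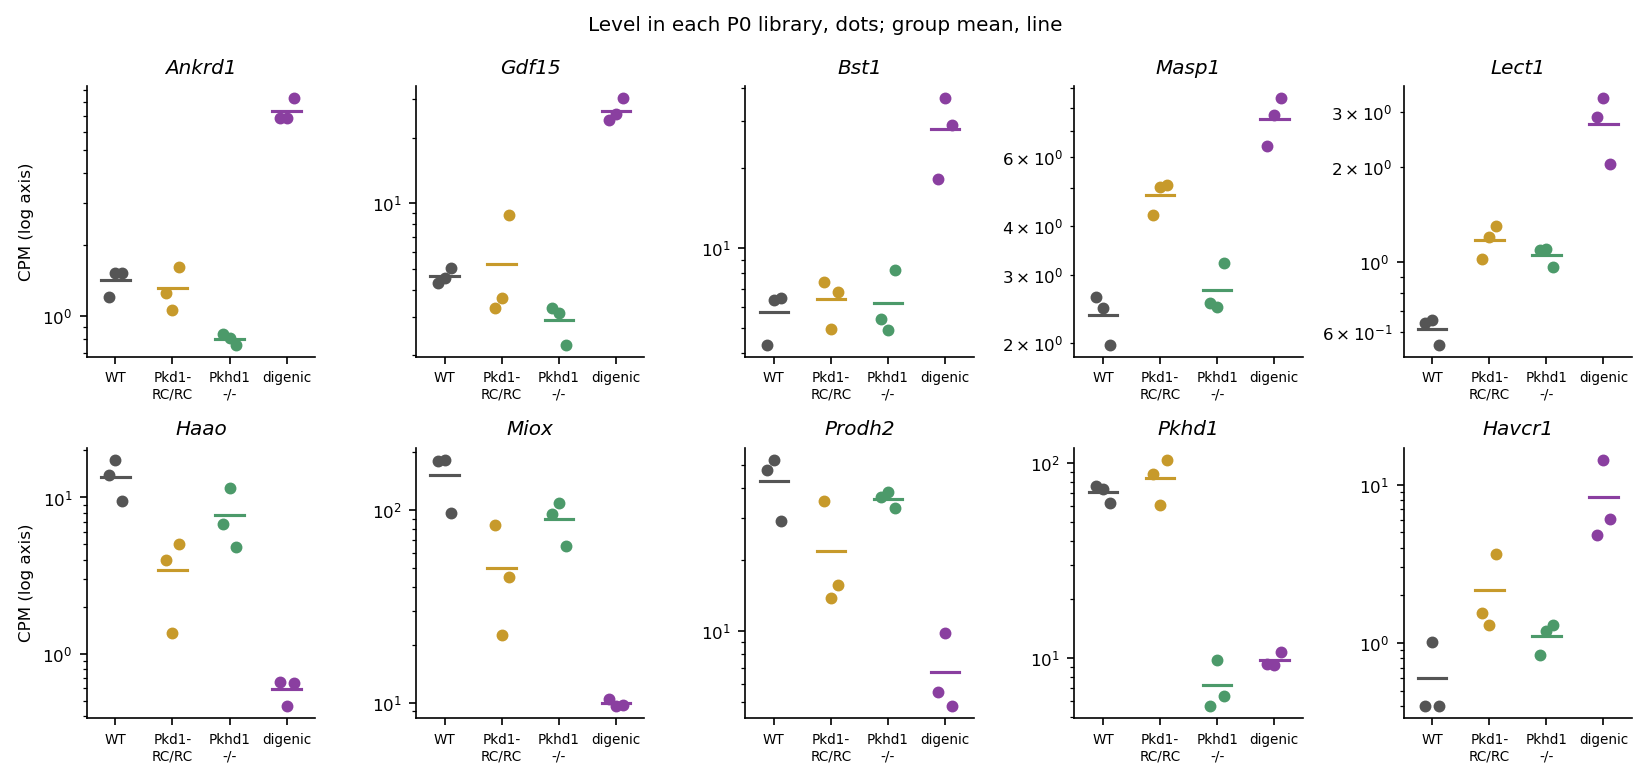
CPM on a log axis (vertical) in each of the 12 P0 libraries (dots) with the group mean (line), for 10 genes in 4 genotypes. The 3 digenic libraries stand apart from every other library for Ankrd1, Gdf15, Bst1, Masp1, Lect1 and Havcr1 on the high side and for Haao, Miox and Prodh2 on the low side, while Pkhd1 is as low in Pkhd1-/- as in digenic. Of the genes shown, the test of digenic against Pkd1-RC/RC called only Ankrd1, Gdf15, Bst1 and Pkhd1. The share of all genes without overlap against a single mutant was not counted.

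The other rises named by rank had log2 fold changes from 2.31 to 1.69. They were B4galnt2 (a glycosyltransferase), Hsd3b3 (a steroid dehydrogenase with close paralogs), Il5ra (a chain of the interleukin 5 receptor), Gldc (of the glycine cleavage system), Krt80 (a keratin), Grm4 (a glutamate receptor) and L1td1 (an RNA-binding protein). Gldc stood at 34.7, 77.6 and 69.2 CPM in the digenic libraries and 19.5, 15.0 and 12.5 CPM in wild type, a log2 fold change of 1.95 ± 0.308 (SE), adjusted p = 0.0136. Tinagl1, a matrix protein of tubular basement membranes kept in every fit, stood at 309.8, 347 and 303 CPM in the digenic libraries and 139, 176 and 128 CPM in wild type (log2 fold change 1.11 ± 0.127 (SE), adjusted p = 0.00197). Of the 28 rises and falls named by rank, 9 kept their call without any 1 library, and the others lost it without 1 to 6 of the 6.

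The promoter windows of 4 genes with large changes are shown because genes that moved in the same direction may share letters there. Windows of 300 bases around the start were taken from RefSeq (GRCm38.p6), which held them for 83 of the 121 genes. Of 9 motif spellings searched on both strands, those shown in capitals are GGAATG, the core that TEAD factors bind, and GTTAAT, the shorter of 2 HNF1 spellings searched. Each line reads 5′ to 3′ on the gene's strand.
Ankrd1, chr19:36119795-36120094, minus strand: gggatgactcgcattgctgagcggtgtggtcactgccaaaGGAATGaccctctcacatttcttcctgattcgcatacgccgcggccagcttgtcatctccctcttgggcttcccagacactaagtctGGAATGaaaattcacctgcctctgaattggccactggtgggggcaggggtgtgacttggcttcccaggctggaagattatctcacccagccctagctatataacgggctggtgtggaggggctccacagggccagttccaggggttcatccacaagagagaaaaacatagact
Haao, chr17:83846741-83847040, minus strand: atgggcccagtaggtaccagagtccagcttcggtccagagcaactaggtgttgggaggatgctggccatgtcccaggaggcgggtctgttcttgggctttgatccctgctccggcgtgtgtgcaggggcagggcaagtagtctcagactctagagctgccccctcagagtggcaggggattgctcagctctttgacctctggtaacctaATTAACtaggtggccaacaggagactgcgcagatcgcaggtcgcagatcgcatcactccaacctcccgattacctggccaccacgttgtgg
Miox, chr15:89334223-89334522, plus strand: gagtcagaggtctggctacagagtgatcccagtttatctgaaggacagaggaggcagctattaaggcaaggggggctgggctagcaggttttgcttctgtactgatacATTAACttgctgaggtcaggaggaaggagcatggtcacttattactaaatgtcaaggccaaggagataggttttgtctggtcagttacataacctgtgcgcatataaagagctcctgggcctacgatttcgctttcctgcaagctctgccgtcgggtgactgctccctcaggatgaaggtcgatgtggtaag
Prodh2, chr7:30493408-30493707, plus strand: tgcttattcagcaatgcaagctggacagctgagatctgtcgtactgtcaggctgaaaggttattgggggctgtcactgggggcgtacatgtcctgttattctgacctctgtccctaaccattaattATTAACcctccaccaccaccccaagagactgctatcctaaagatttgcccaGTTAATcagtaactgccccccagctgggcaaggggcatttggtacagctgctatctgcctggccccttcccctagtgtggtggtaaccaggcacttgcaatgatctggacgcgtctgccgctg
Ankrd1 had 2 GGAATG matches, Haao and Miox 1 GTTAAT match each, read on the other strand, and Prodh2 had 2. GGAATG was present in 19 of 71 windows of the rises (26.8%), in 3 of 31 windows of the falls and in 14.7% of all 32851 windows. GTTAAT was present in 5 of 31 windows of the falls (16.1%), those of Haao, Miox, Prodh2, Pkhd1 and Rsph3a, in 8 of 71 of the rises (11.3%) and in 7.10% of all windows. The motifs and genes were picked with the fold changes known, the same gene can have several windows, and a match is a description of letters. The other spellings were CATTCCA, which contains the reverse complement of GGAATG, CAAAGTCCA and CAAAGGTCA for HNF4, the full palindrome for HNF1, TGANTCA for AP-1, TGACGTCA for CRE and TGATGNAA for ATF4. CATTCCA, the longer TEAD spelling, was in 4 of 71 windows of the rises (5.63%) and in 4.29% of all windows, close to the background. In windows of the rises TGANTCA was found in 7 (9.86%, against 7.81% of all windows), TGATGNAA in 3 (4.23%, against 3.97%), CAAAGTCCA in 2, CAAAGGTCA in 1, and TGACGTCA and the palindrome in none. Among these other spellings TGATGNAA was found in 1 window of the falls, and the rest in none.

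Lists of genes with a known role, 54 in number and 663 tested genes in all, held 24 of the called genes in 17 lists, and 37 lists held none. The median log2 fold change over all genes tested was 0.00302. Of all genes tested, 0.466% were called higher and 0.205% lower, while 11.4% lay wholly above wild type and 11.2% wholly below.

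YAP targets had 3 of 20 members called higher and 0 lower, with a median log2 fold change of 0.43 and 10 members wholly above wild type. Besides Ankrd1 these were Nt5e, the ectonucleotidase CD73, at 42.2, 51.8 and 33.0 CPM in the digenic libraries and 11.2, 19.99 and 9.41 CPM in wild type (log2 fold change 1.64 ± 0.297 (SE), adjusted p = 0.0293), and F3, tissue factor, at 20.4, 22.4 and 19.6 CPM in the digenic libraries and 10.1, 11.9 and 12.2 CPM in wild type (log2 fold change 0.86 ± 0.157 (SE), adjusted p = 0.0304). Nuak2 and Cyr61 did not pass, at log2 fold changes of 0.93 and 0.85 with adjusted p of 0.0923 and 0.095 by edgeR. Among the 15 factors of the pathway itself 1 passed, Amot, a binding partner of YAP, at a log2 fold change of 0.67 ± 0.119 (SE), adjusted p = 0.0263. Tubular injury genes had 2 of 23 called higher, Havcr1 and Gdf15, and a median of 0.45. Dcdc2a, Il34 and Anxa3 did not pass, at log2 fold changes of 0.78, 0.87 and 0.75.

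Cystic disease and cilium genes had 1 of 21 called higher and 1 lower, with a median of 0.41 and 12 wholly above wild type. The rise was Glis2, a transcription factor of nephronophthisis, at 202, 183 and 179 CPM in the digenic libraries and 100.2, 135 and 97.4 CPM in wild type (log2 fold change 0.76 ± 0.147 (SE), adjusted p = 0.0367), and the fall was Pkhd1. Glis2 lost its call without 5 of the 6 libraries in turn. Pkd1-RC/RC libraries held 198, 169 and 156 CPM of it, which overlapped with digenic, and Pkhd1-/- libraries 117, 126 and 146 CPM. Ift140 and Dzip1l did not pass (log2 fold changes 0.80 and 0.86, adjusted p of 0.128 and 0.147 by edgeR).

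Kynurenine and NAD genes moved both ways, with 2 of 16 called higher, 1 lower and a median of 0.34. Next to the fall of Haao and the rise of Bst1, Kmo, the monooxygenase 2 steps before Haao, stood at 1.26, 2.03 and 1.57 CPM in the digenic libraries and 0.261, 0.263 and 0.178 CPM in wild type (log2 fold change 2.79 ± 0.565 (SE), adjusted p = 0.0455), with its call lost in each of the 6 fits without 1 library. Pkd1-RC/RC libraries held 4.26, 1.25 and 1.04 CPM of Kmo, which overlapped with digenic, and Pkhd1-/- libraries 0.839, 0.419 and 1.19 CPM. Acmsd, which diverts the product of Haao, did not pass (log2 fold change -0.93, adjusted p = 0.267). Inositol and amino acid catabolism had 1 of 19 called higher, Gldc, and 2 lower, Miox and Prodh2, with a median of -0.04. Dmgdh, which breaks down dimethylglycine, did not pass (log2 fold change -1.17).

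Proximal tubule markers had 2 of 27 called lower, Miox and Kap, and 0 higher, with a median of -0.17. Their summed level was 4937 to 5555 CPM in digenic and 5424 to 8588 CPM in wild type, which overlapped. Hnf4a, a master transcription factor of these cells, stood at 273, 321 and 368 CPM in the digenic libraries and 190.3, 229 and 195 CPM in wild type, higher in every digenic library without passing (adjusted p = 0.0605). Slc34a1, the main phosphate transporter, stood at 479.9, 439 and 501 CPM in the digenic libraries and 1151, 1262 and 714 CPM in wild type and did not pass either (log2 fold change -1.14 ± 0.285 (SE), adjusted p = 0.086). Organic ion transporters had 2 of 22 called lower, Slc22a7 and Slc22a19, 0 higher, a median of -0.79 and 12 members wholly below wild type. Slc22a19 stood at 85.2, 64.0 and 96.4 CPM in the digenic libraries and 182, 241 and 179 CPM in wild type (log2 fold change -1.30 ± 0.266 (SE), adjusted p = 0.046), and has close paralogs. Slco1a6 and Slc22a2 did not pass (log2 fold changes -1.31 and -1.04).

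Intercalated cell markers had 1 of 17 called lower, 0 higher, a median of -0.71 and 10 members wholly below wild type. The called gene was Foxi1, the transcription factor that specifies these acid-base cells, at 19.6, 20.8 and 16.6 CPM in the digenic libraries and 49.7, 31.1 and 48.6 CPM in wild type (log2 fold change -1.18 ± 0.206 (SE), adjusted p = 0.0241), with its call lost without 5 of the 6 libraries in turn. Rhbg and Slc26a4 did not pass (log2 fold changes -1.24 and -1.45, adjusted p of 0.054 and 0.0614 by edgeR). The summed level of these markers overlapped, at 691 to 750.2 CPM in digenic and 633 to 903 CPM in wild type. In whole tissue, fewer cells of a type and less RNA per cell cannot be told apart. Principal cell markers had 0 of 11 called, with a median of 0.33 and 4 members wholly above wild type. Their summed level did not overlap, at 1470 to 2021 CPM in digenic and 1066 to 1231 CPM in wild type. The sum was 1146 to 1599 CPM in Pkhd1-/-, which overlapped with digenic, and 854 to 1138 CPM in Pkd1-RC/RC. Aqp4 and Aqp2 did not pass (log2 fold changes 1.11 and 0.77).

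**Figure D4:**
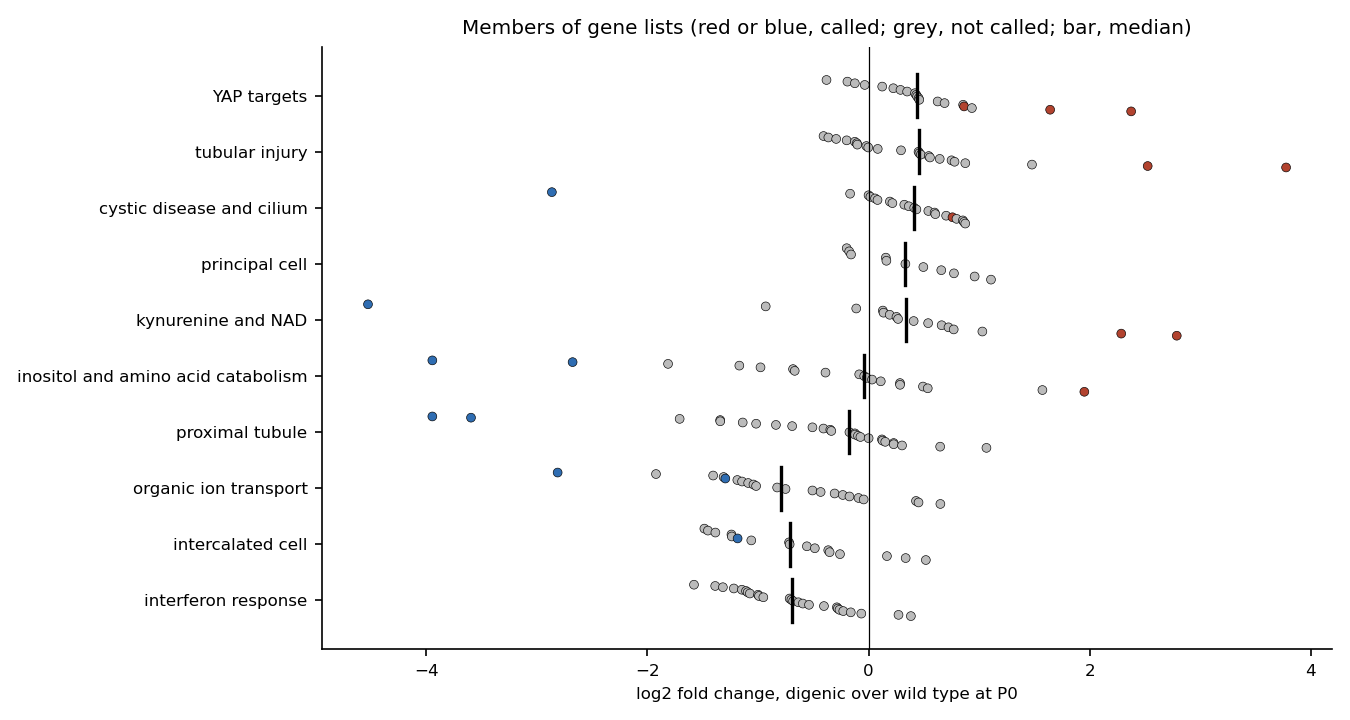
Log2 fold change of digenic over wild type (horizontal axis) for each tested member of 10 gene lists (vertical axis), with called members in red or blue, the rest grey and a bar at the median. Medians of organic ion transporters, intercalated cell markers and the interferon response lie at -0.79, -0.71 and -0.69, those of YAP targets and tubular injury at 0.43 and 0.45.

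Interferon response genes had 0 of 26 called, a median of -0.69 and 15 members wholly below wild type. Rtp4 stood at 10.4, 6.99 and 8.71 CPM in the digenic libraries and 22.5, 20.2 and 22.5 CPM in wild type without passing (log2 fold change -1.32 ± 0.281 (SE), adjusted p = 0.0548). Neutrophil markers had 0 of 6 called, a median of -1.01 and 5 members wholly below. Their summed level was 9.64 to 19.9 CPM in digenic and 24.4 to 26.7 CPM in wild type. In Pkd1-RC/RC the sum was 10.2 to 17.8 CPM, within the digenic range, and in Pkhd1-/- 25.3 to 29.3 CPM. Macrophage markers had 1 of 15 called higher, Csf1r, the receptor these cells need to survive, at 113, 116 and 105 CPM in the digenic libraries and 52.4, 72.5 and 49.8 CPM in wild type (log2 fold change 0.94 ± 0.162 (SE), adjusted p = 0.0238), while their median was -0.10. Csf1r lost its call without 5 of the 6 libraries in turn. Aif1, another macrophage gene, did not pass (log2 fold change -1.18). Oxidative phosphorylation genes had 0 of 14 called, a median of -0.18 and 9 members wholly below wild type, and glycolysis genes 0 of 15 called, a median of -0.36 and 7 wholly below. Markers of gut, liver and pancreas summed to 239 to 263 CPM in digenic and 327 to 499.6 CPM in wild type, with 0 of 8 called. Erythroid markers had 6 of 6 members at negative log2 fold changes and a median of -0.62, muscle 5 of 5 and -0.44, stroma 10 of 11 and -0.32, and fat 3 of 4 and -0.38, with 0 called in each. The summed levels in digenic and wild type were 402 to 999 and 928 to 1282 CPM for erythroid, 30.4 to 35.9 and 32.0 to 45.6 CPM for muscle, 4594 to 5674 and 4879 to 7205 CPM for stroma and 152 to 183 and 237 to 305 CPM for fat. The sums overlapped except for fat and for gut, liver and pancreas. The part of these cell types in the lists that stood lower was not tested. With 1 library left out in turn, the medians ran from 0.31 to 0.51 for YAP targets, from 0.36 to 0.49 for tubular injury, from -0.97 to -0.70 for organic ion transporters and from -0.88 to -0.53 for intercalated cell markers.

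The other 7 lists with a called member held 1 or 2 each. Masp1 rose among 9 complement genes. Cyp4a12b, a fatty acid hydroxylase with a near-identical paralog, rose among 22 genes of fatty acid oxidation and the peroxisome (log2 fold change 2.25 ± 0.421 (SE), adjusted p = 0.0334). Cdkn1c, an imprinted inhibitor of the cell cycle, fell among 13 imprinted growth genes (log2 fold change -0.67 ± 0.134 (SE), adjusted p = 0.0442). Aldh1a1, which makes retinoic acid, rose and Crabp1 fell among 13 retinoic acid genes, at log2 fold changes of 1.56 ± 0.271 (SE), adjusted p = 0.0241 and -2.32 ± 0.473 (SE), adjusted p = 0.0456. Reads of Aldh1a1 and Aldh1a7 can be split between them. Gdf15 was also counted with the p53 targets and the integrated stress response, where no other member passed, and Foxi1 with 20 nephron transcription factors. Called genes outside every list, named here after their values were seen, included Wwc1 (KIBRA, an upstream component of the Hippo pathway that restrains YAP), at 172, 196 and 189.9 CPM in the digenic libraries and 107, 135 and 109.9 CPM in wild type (log2 fold change 0.67 ± 0.129 (SE), adjusted p = 0.0367). Ligands among them were Btc, an EGF receptor ligand, Slit2, a guidance cue that limits ureteric budding, and Sema3c, with log2 fold changes of 1.57, 0.96 and 0.50 and calls lost without 5 or 6 of the 6 libraries. Lamb3, a laminin chain, and Itga3, an integrin chain that binds laminin, stood at log2 fold changes of 0.92 and 0.59, with calls lost without any 1 of the 6.

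Digenic kidneys were set against each single mutant at the same age, a comparison that shares the digenic libraries with that above. Against Pkd1-RC/RC 7 of 18035 genes were called (0.0388%): Ankrd1, Gdf15, Bst1, Tinagl1 and Selenbp2 higher, Pkhd1 and 4930486I03Rik lower. Against Pkhd1-/- 44 were called (0.244%), among them 28 of the 84 rises and 9 of the 37 falls against wild type. The 4 genes called against all 3 other genotypes were Ankrd1, Gdf15, Bst1 and Tinagl1, all higher in digenic. Against Pkd1-RC/RC, in the same order, their log2 differences were 2.49 ± 0.226, 2.34 ± 0.323, 2.12 ± 0.289 and 1.01 ± 0.127 (SE). Ankrd1 kept that call without any 1 library. Bst1 lost it in all such fits but that without digenic replicate 1. Gdf15 lost it when replicate 1 or 2 of Pkd1-RC/RC, or digenic replicate 2 or 3, was left out. Tinagl1 lost it when replicate 1 or 2 of Pkd1-RC/RC was left out, and without digenic replicate 2. Against Pkhd1-/- the 4 genes kept their call without any 1 library, and 29 genes in all were called without Pkhd1-/- replicate 1. The number ran from 19 without digenic replicate 2 to 306 without Pkhd1-/- replicate 3. Against wild type, 81 of the 84 P0 rises were positive in Pkd1-RC/RC (median log2 fold change 0.65) and 67 in Pkhd1-/- (0.27). Of the 37 P0 falls, 34 were negative in Pkd1-RC/RC (median -0.65) and 32 in Pkhd1-/- (-0.33). Among them 3 rises were called in Pkd1-RC/RC and 2 falls in Pkhd1-/-. The same wild-type libraries served the choice of these genes, which alone favours the same direction.

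The P0 genes were then read at the later ages, where each age was fitted on its own. At P3, 377 genes were called higher (2.09%) and 110 lower (0.61%) in digenic than in wild type, and 39 of the 84 P0 rises and 15 of the 37 P0 falls were called in the same direction. By their column headers the digenic libraries of P3 were all female, and those of wild type male, male and female. Sex and genotype are therefore partly confounded at P3, which also enters its differences from P0. The fit of P3 held no sex term. At P12, 2158 genes were called higher (12%) and 1983 lower (11%), with 52 of the P0 rises and 19 of the P0 falls in the same direction. Kmo was called lower at P12, and Evi2a, H2-Q7 and Slc22a19 higher, against their P0 direction. Without digenic P12 replicate 1, 1914 genes were called higher and 1639 lower at P12, with 48 of the P0 rises and 18 of the P0 falls in the same direction. In that fit Upf3b, and not Kmo, was the rise called lower. Without Pkd1-RC/RC P12 replicate 2 the counts were 2093 and 1966, with 52 rises and 20 falls. Havcr1 was higher at each age, at log2 fold changes of 3.78, 3.83 ± 0.679 and 4.17 ± 0.433 (SE) at P0, P3 and P12, called at all 3. Folh1 stood at 3.43, 1.95 ± 0.333 and -0.10 ± 0.339, and Haao at -4.53, -0.93 ± 0.246 and -1.67 ± 0.310. Miox stood at -3.95, -0.88 ± 0.163 and -1.65 ± 0.166.

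In a fit of all 36 libraries the digenic effect itself differed between P3 and P0 at 125 of 18049 genes (0.693%) and between P12 and P0 at 1587 (8.79%). Of the 37 P0 falls, 9 were less negative at P3 and 17 at P12 by that test, and none was more negative. Of the 84 P0 rises, 4 were smaller at P3 and 25 at P12, and 2, Fam129a and Tcp11, were larger at P12. The P0 libraries serve both the choice of these genes and this test, and a gene chosen for a large difference will on average show a smaller one in other libraries. Over all genes the counts of 125 and 1587 became 280 and 2472 when wild-type replicate 2 was left out, and 31 and 891 when digenic replicate 2 was. Leaving out wild-type replicate 3 gave 54 and 990, wild-type replicate 1 81 and 1130, and digenic replicate 1 69 and 1251. Without digenic P12 replicate 1, 1112 genes differed between P12 and P0, with 24 of the rises smaller, 1 larger and 16 of the falls less negative.

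**Figure D5:**
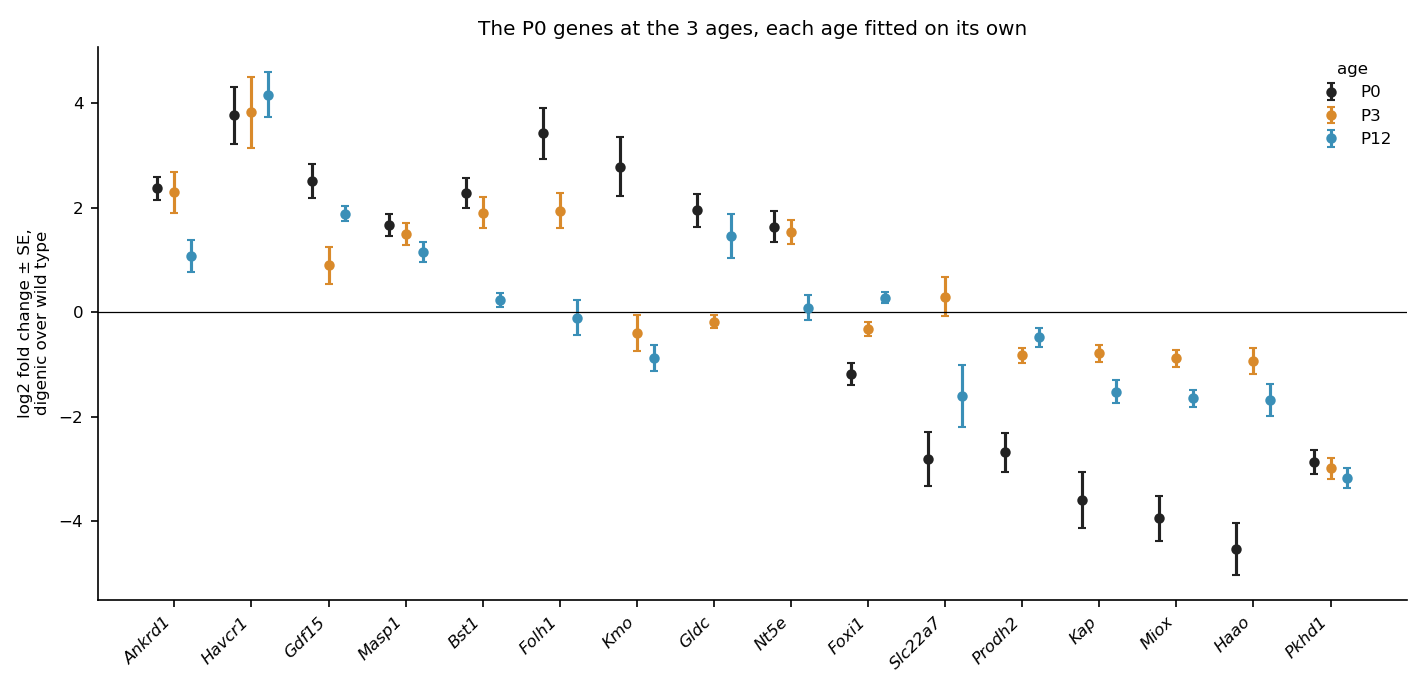
Log2 fold change of digenic over wild type ± SE (vertical axis) at P0, P3 and P12 for 16 of the P0 genes (horizontal axis), from a fit of the 12 libraries of each age. Pkhd1 and Havcr1 stay near the same value, at -2.86 to -3.18 and 3.78 to 4.17, while Haao, Miox, Kap and Prodh2 are nearer to 0 at the later ages.

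Wild-type libraries of P3 and P12, which take no part in the P0 comparison, gave the direction of normal change over that time. Between them 3350 genes rose (18.6%) and 3063 fell (17%). Of the 37 P0 falls 15 rose from P3 to P12, among them Kap, Miox, Dpep1, Slc22a7 and Foxi1, and 8 fell. Of the 84 P0 rises 35 rose, among them Folh1, Kmo, Nt5e, Ankrd1 and Gdf15, and 11 fell.

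Interferon response genes, of which 0 of 26 were called at P0, had 22 called higher and 0 lower at P3 and 12 higher and 1 lower at P12, with medians of 1.68 and 0.92 beside -0.01 over all genes at each age. The interferon-induced GTPases of the IRG and GBP families, 12 in number with 0 called and a median of -0.58 at P0, had 8 and 9 called higher at P3 and P12 and medians of 4.85 and 3.86. Without digenic P12 replicate 1 the P12 medians were 0.33 for the interferon response, with 8 called higher, and 1.91 for the GTPases, with 5 called higher. Without Pkd1-RC/RC P12 replicate 2 the P12 medians were 0.92 and 3.86, with 8 and 9 called higher. YAP targets had 5 and 7 of 20 called higher at P3 and P12 and 0 lower. Tubular injury genes had 1 of 23 called higher at P3 and 17 at P12. Over all genes tested 2.09% were called higher at P3 and 12% at P12, and 0.61% and 11% were called lower.

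Within 20 Mb of Pkd1 on chromosome 17, 13 of 536 tested genes were called (2.43%), 7 higher and 6 lower, and within 20 Mb of Pkhd1 on chromosome 1, 3 of 175 (1.71%), all lower. Those near Pkhd1 were Pkhd1 itself, the antisense transcript 4930486I03Rik within it, and 2610203C22Rik. Over the other genes 105 of 17324 were called (0.606%). These included Haao, Slc22a7 and Unc5cl, which lie on chromosome 17 outside the window around Pkd1. Chromosome 17 as a whole held 16 called genes among 843 tested (1.90%). The genes near Pkd1 were Grm4, Noxo1, Gm26858, Cpne5, Glo1, Tcp11 and Cyp39a1 among the rises and Crisp1, Rsph3a, Rps2, Rnps1, H2-Q7 and Zfp943 among the falls. Glo1, a detoxifying enzyme, stood at 202, 186 and 128 CPM in the digenic libraries and 91.6, 90.0 and 89.0 CPM in wild type, and Pkd1-RC/RC libraries held 194, 141 and 192 CPM. Rps2, a ribosomal protein with many gene copies, stood at 434, 345 and 376 CPM in the digenic libraries and 725, 678 and 865 CPM in wild type, and Pkd1-RC/RC libraries held 329, 354 and 437 CPM. For both genes the Pkd1-RC/RC levels overlapped with digenic. An effect of the genotype and of the chromosome that carries the allele cannot be told apart in these groups, for Haao and Slc22a7 as well.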

How the data were processed

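RNA of whole kidneys was sequenced as 150-base paired-end reads, per the labels' protocols. The authors ran MAP-RSeq 2.1.0 (TopHat2, Bowtie, featureCounts) on mm10, per the submitters' processing notes and the series' design text, which name no annotation and no strand setting. The deposited table holds raw counts per gene for 36 libraries and 18049 genes, per the file headers. The log2 fold changes of digenic against wild type at P0 in the authors' deposited table had the same sign as those here for 121 of 121 called genes. The 36 deposited normalized columns were not used.

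Counts were filtered with filterByExpr, scaled by TMM and fitted with a robust quasi-likelihood model in edgeR 4.0.16 (limma 3.58.1, R 4.3.3), over the 12 P0 libraries with 1 term per genotype. Calls rest on p-values adjusted by Benjamini-Hochberg over the 18035 genes tested, with a threshold of 0.05. Log2 CPM used a prior count of 2. Age differences came from 1 fit of 36 libraries. The rule for named genes took Pkd1, Pkhd1 and Pkd2, the 14 largest called rises and falls that had an official symbol, no overlap between groups and 0 or more in mean log2 CPM, every called list member and up to 4 members of each list described with the smallest p. AU015836, Nsg2, Tinagl1, Gramd1b, Gm14292, Gm9825, Selenbp2, Glo1, Rps2, Wwc1, Btc, Slit2, Sema3c, Lamb3 and Itga3 were named after their values were seen. The members and lists were chosen with earlier results of these data known. Alternatives were DESeq2 1.42.0, RLE scaling, no filter, only the 2 groups, all libraries, a replicate block, a sex term (sex read from Xist and Y-linked counts), removal of the gene length trend and leaving out each library. Chromosomes came from GENCODE M21 for 17864 genes. For well expressed genes depth makes counting error small, and the spread between mice sets the precision. Genes below 1 CPM, such as Kmo in wild type, rest on few reads, and counting error adds to that spread. On simulated counts for digenic against wild type over 18031 genes, 57 of 100 genes changed by 1 on the log2 scale and 95 of 100 changed by 2 were recovered, with 8 false calls among 160. These counts were drawn from the spread fitted here, and the changed genes had a mean of at least 1 CPM. No adrenal, liver or gene length shift of single libraries was put in, so the simulation does not cover such shifts or lower genes.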

Additional observations from a re-analysis of the deposited data

Results flagged for a closer look

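The digenic effect of the genes below differed between P0 and a later age by the test of that difference in the fit of all 36 libraries (edgeR, adjusted p under 0.05). Values are the effect at the later age minus that at P0 on the log2 scale. All these genes were selected for their difference at P0. At P3 the digenic libraries were all female by their headers, and those of wild type male, male and female.

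For Haao the difference was 3.61 (adjusted p = 0.00244) at P3 and 2.86 (adjusted p = 0.00105) at P12. Miox differed by 3.08 (adjusted p = 0.000621) at P3 and by 2.31 (adjusted p = 0.000547) at P12. For Kap the difference was 2.83 (adjusted p = 0.00701) at P3 and 2.09 (adjusted p = 0.00895) at P12. Prodh2 differed by 1.87 (adjusted p = 0.0195) at P3 and by 2.20 (adjusted p = 0.000522) at P12. For Slc22a19 the difference was 1.68 (adjusted p = 0.00578) at P3 and 2.28 (adjusted p = 1.61e-05) at P12. Kmo differed by -3.17 (adjusted p = 0.0192) at P3 and by -3.66 (adjusted p = 0.000522) at P12. At P3 alone, Slc22a7 differed by 3.13 (adjusted p = 0.0446) and Gldc by -2.12 (adjusted p = 0.0275).

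At P12 alone, among genes lower at P0, Crisp1 differed by 3.91 (adjusted p = 0.0262), Ces1e by 1.61 (adjusted p = 0.04), Foxi1 by 1.47 (adjusted p = 0.000105) and Ndp by 1.38 (adjusted p = 0.0159). Among genes higher at P0, Folh1 differed by -3.54 (adjusted p = 0.000324), Bst1 by -2.04 (adjusted p = 0.000966), Nt5e by -1.54 (adjusted p = 0.0143) and Glis2 by -0.58 (adjusted p = 0.0225). Of these genes, Slc22a19 was called higher and Kmo lower in digenic than in wild type at P12, against their P0 direction, the latter not without digenic P12 replicate 1. The P12 log2 fold changes of Foxi1, Crisp1 and Folh1, 0.28, 0.49 and -0.10, and the P3 ones of Gldc, Slc22a7, Kmo and Slc22a19, -0.18, 0.30, -0.39 and 0.38, also had the other sign without passing the test. All the P12 differences given here were called again without digenic P12 replicate 1 and without Pkd1-RC/RC P12 replicate 2, whose column headers disagree with the labels.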

How the results depend on the processing

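Of 615 values of named genes under alternatives, 455 stayed on the same side of the threshold, 158 no longer passed and 2 newly passed, and none that was called changed direction. Genes called higher in digenic than in wild type numbered 84, and 39 with a replicate block, 1008 with all 36 libraries and 431 with DESeq2, with 11 to 132 when 1 library was left out. Genes called lower numbered 37, and 61 with only the 2 groups, 17 with a replicate block, 107 with a sex term, 273 with DESeq2 and 637 with all 36 libraries, with 7 to 52 when 1 library was left out. DESeq2 called all 84 rises and all 37 falls. With the gene length trend removed 69 of the 84 rises and 28 of the 37 falls were still called. Some settings were chosen after seeing the data: without Pkhd1-/- replicate 1 the counts were 124 and 52, and without genes within 20 Mb of Pkd1 or Pkhd1 77 and 28. Against Pkd1-RC/RC the 7 calls became 4 with only the 2 groups, 64 with DESeq2 and 63 with all libraries, and 2 to 8 when 1 library was left out. Against Pkhd1-/- the 44 became 25 with a replicate block, 79 with a sex term, 502 with DESeq2 and 1174 with all libraries, and 19 to 306 when 1 was left out, the highest without Pkhd1-/- replicate 3. Differences between P3 and P0 went from 125 to 31 with only digenic and wild type of the 2 ages and 297 with DESeq2, and ran from 31 to 280 when 1 library was left out. Differences between P12 and P0 went from 1587 to 781 with only those groups, and ran from 891 to 2472. In fits chosen after seeing the data, the differences between P12 and P0 numbered 1112 without digenic P12 replicate 1, 1522 without Pkd1-RC/RC P12 replicate 2 and 1767 without Pkhd1-/- replicate 1, and those between P3 and P0 130 without the latter. The cause of these moves was not tested. Replicate numbers do not pair the samples: deviations of same-numbered wild-type and digenic libraries correlated at -0.284, 0.220 and 0.0473, and wild-type replicate 1 correlated best with digenic replicate 3. Leaving out 1 library leaves 2 in its group.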
